A study of Mus musculus with 2 samples.

Results

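The 10 genes described here encode the NF-kappa-B subunits and the best known inhibitors and regulators that NF-kappa-B itself induces: Rela, Rel, Relb, Nfkb1 and Nfkb2 among the subunits, and Nfkbia, Nfkbid, Nfkbiz, Bcl3 and Tnfaip3 among the regulators. They were taken by symbol, for their known roles in the pathway, from the 32285 genes counted, and each symbol matched 1 row in both count matrices. In the GENCODE M21 annotation of GRCm38 all 10 are protein-coding, on chromosomes 3, 7, 10, 11, 12, 16 and 19, and none shares exons on its strand with another gene. Relb and Bcl3 lie 179023 bases apart on chromosome 7. The cells were CD4 T cells of wild-type (WT) donor mice that had been sensitized to house dust mite extract (HDM), an allergen, in the airways on days 0 and 7 to 11. On day 14 the donor cells were enriched from the lung, labelled with the division dye Cell Trace Violet and moved into C57BL/6 WT hosts or MARCH1-/- hosts. MARCH1 is a membrane ubiquitin ligase of antigen-presenting cells that removes MHC class II and CD86 from their surface. All hosts were then challenged with HDM, and 4 days later donor cells low in the dye, which had divided, were sorted from the lung and made into 1 single-cell library per host genotype with a 10x 3' kit. The number of hosts behind a library and their age are not given in the sources used here, and with 1 library per group no difference between hosts has a replicate check.

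NF-kappa-B factors are dimers of 5 related subunits. Rela, Rel and Relb carry transactivation domains, while Nfkb1 and Nfkb2 encode the precursors p105 and p100, which are processed to p50 and p52. Resting dimers are held in the cytoplasm by inhibitors of the I-kappa-B family, whose phosphorylation and breakdown after T cell receptor, CD28, TNF-family or IL-1-family signals frees them. Freed dimers induce their own brakes, among them I-kappa-B-alpha (Nfkbia) and the ubiquitin-editing enzyme A20 (Tnfaip3). In T cells the pathway is known for its part in activation, survival and the differentiation of helper and regulatory subsets.

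RefSeq promoter windows (build GRCm38.p6, 250 bases before to 50 after a RefSeq start, of which a gene can have several) were matched for 7 of the 10 genes. Relb, Nfkb1 and Nfkbiz were not matched. A script searched both strands of each window for the 10-base kappa-B consensus, the sequence that NF-kappa-B dimers bind, and merged overlapping matches. A match was found for 6 of the 7 genes, all but Rela, and in 1388 of all 27025 symbols with a window (5.14%). Counted by window, 8 of the 12 windows of these genes and 1480 of all 32851 windows (4.51%) held a match. A match is a description of the letters, not a measured binding site, and these genes were chosen as pathway members, so no test of the share was made. The Nfkbia promoter is shown whole because Nfkbia carried the main difference between hosts. It spans the 250 bases before the start at chr12:55492648-55492897 on the minus strand, written 5′ to 3′ along the gene with the consensus match in capitals.
Nfkbia: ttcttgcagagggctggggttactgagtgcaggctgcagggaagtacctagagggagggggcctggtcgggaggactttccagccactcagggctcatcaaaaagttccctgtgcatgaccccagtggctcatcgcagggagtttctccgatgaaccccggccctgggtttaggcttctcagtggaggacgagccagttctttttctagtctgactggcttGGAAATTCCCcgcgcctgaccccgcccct
The match lies at -29, the distance in bases from the start of its own window to the first base of the match. Start here means the RefSeq start the window was drawn around. It reads as the consensus on the opposite strand. The matches of 5 other genes are shown in 30-base stretches for comparison with it, in the same way. Those of Nfkb2, Nfkbid and Tnfaip3 lie before the start of their window but inside the GENCODE span of the gene.
Rel, chr11:23771042-23771071, minus strand, match at -92: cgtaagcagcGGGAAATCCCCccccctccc
Nfkb2, chr19:46304688-46304717, plus strand, match at -39: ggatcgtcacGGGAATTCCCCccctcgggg
Nfkbid, chr7:30422170-30422199, plus strand, match at -226: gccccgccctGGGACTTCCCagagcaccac
Bcl3, chr7:19822734-19822763, minus strand, match at 3: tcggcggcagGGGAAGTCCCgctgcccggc
Tnfaip3, chr10:19015403-19015432, minus strand, match at -12: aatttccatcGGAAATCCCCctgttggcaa
The Rel and Nfkb2 stretches each hold 3 overlapping matches, which read as the consensus on both strands. Nfkb2 held 4 separate matches over its 3 windows, Nfkbid 2 over 3 windows, and Tnfaip3 2 over 2 windows.

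The libraries held 352 called cells for the WT host (2571048 unique molecular identifiers, UMIs; median 6086 per cell) and 156 for the MARCH1-/- host (1575581 UMIs; median 8017). No barcode was called in both. A UMI of at least 3 of 12 T cell markers was found in 98.3% and 100% of cells. Of 15 myeloid markers 3 were seen in the WT-host library and 6 in the other, at 214 and 241 CPM summed. Cst3, which many cell types express, held 547 of those 551 UMIs and 368 of 379, and Csf1r, Adgre1 and Cd14 were at 0 in both. The 5 B cell markers gave 6 and 7 UMIs (Ms4a1 at 0), the 4 NK markers 1 and 3, and the 6 epithelial and stromal markers 50.2 and 53.3 CPM, mostly Pecam1. Of the CD8 pair, Cd8b1 gave 30 and 16 UMIs and Cd8a 0. At least 3 of 7 markers of type 2 innate lymphoid cells were found in 49.7% and 63.5% of cells, but Gata3, Il1rl1, Areg, Rora, Klrg1 and Il7r on that list are also known in CD4 T cells, and Kit gave 2 and 0 UMIs. March1 was at 0 UMIs in both, which checks no label because the donor cells were WT in both groups. All levels below are counts per 1000000 UMIs (CPM) summed over cells, one count per captured 3' end, with exact 95% Poisson intervals. Ratios carry exact conditional 95% intervals. Both cover counting error only, treat UMIs as independent and leave out the variation between cells and between mice. The median gene of the 6762 with at least 50 UMIs had a log2 ratio of 0.25 (MARCH1-/- host over WT host), so ratios are given relative to the median gene of each comparison. A gene is called higher or lower when it lies at least 1.5-fold (0.58 on the log2 scale) from that median gene.

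Among the 10 genes, Nfkbia was called higher in the MARCH1-/- host library, Bcl3 and Nfkbiz were called lower, and the other 7 lay within 1.5-fold. Over all genes 12.6% were called higher and 15.1% lower, so the number of calls, 1 and 2 of 10, lay near the background. The members' median relative log2 ratio was -0.14, against 0.00 for all genes, whose middle 50% lay between -0.37 and 0.34. The 5 subunits summed gave 640 CPM in the WT-host library and 706 CPM in the MARCH1-/- host library, a relative log2 ratio of -0.11 (-0.22 to 0.00), or 0.14 on the plain CPM scale. The 5 regulators summed gave 1017 and 1784 CPM, a relative log2 ratio of 0.56 (0.48 to 0.64), and most of that excess was Nfkbia.

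**Figure D1:**
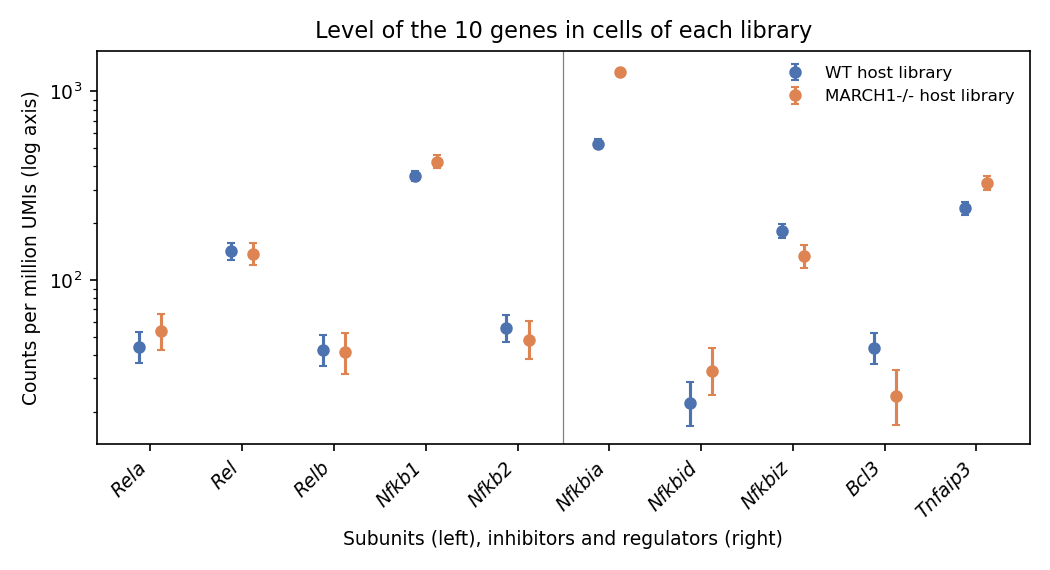
Level of each gene in CPM (log axis) summed over the called cells of the WT-host (blue) and MARCH1-/- host (orange) library, with exact 95% Poisson intervals for counting error. Nfkbia stands highest in both libraries and farthest apart between them, at 529 and 1266 CPM.

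Nfkb1 was the most abundant subunit transcript in both libraries. It was counted at 356 CPM (333 to 380) in the WT-host library and 425 CPM (394 to 459) in that of the MARCH1-/- host, and its relative log2 ratio was 0.00 (-0.14 to 0.15). Rel, which encodes c-Rel, the subunit most tied to T cell activation, stood at 142 CPM (128 to 157) and 138 CPM (120 to 157). Its relative log2 ratio was -0.30 (-0.54 to -0.05), an interval below 0 but a size within 1.5-fold. The other 3 subunits were scarce. Rela, the transactivating subunit of the classical p50 dimer, gave 44.0 and 53.3 CPM and a relative log2 ratio of 0.03 (-0.40 to 0.45). Relb and Nfkb2 encode the dimer of the non-canonical branch. Relb gave 42.4 and 41.3 CPM (-0.29, -0.76 to 0.16). Nfkb2 gave 55.6 and 48.2 CPM (-0.46, -0.88 to -0.05). The intervals of Rela, Relb and Nfkb2 overlapped one another within each library, so these 3 have no order.

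Nfkbia was the most abundant of the 10 transcripts in both libraries and the one member called higher in the MARCH1-/- host library. Its level was 529 CPM (501 to 557; 1359 UMIs) in the WT-host library and 1266 CPM (1211 to 1322; 1994 UMIs) in that of the MARCH1-/- host. The plain log2 ratio was 1.26 (1.16 to 1.36), and relative to the median gene it was 1.01 (0.91 to 1.11), or 2.01-fold. Of the 6762 genes compared, 204 (3.02%) had a higher ratio, and 9 did among the 582 genes that reached 1000 UMIs. The difference was spread over cells. The median cell held 357 CPM in the WT-host library and 1089 CPM in the other, and the quartiles were 0 and 804 against 377 and 1790. The 5% of cells with the most Nfkbia UMIs held 24.6% of them in the WT-host library and 25.8% in the other.

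An Nfkbia UMI was found in 74.1% of WT-host cells and 91.0% of MARCH1-/- host cells. With each cell thinned to 1000 UMIs, which left out 11 shallower WT-host cells and 0 others, the shares were 32.3% (Clopper-Pearson 95% interval 27.3 to 37.5) and 62.8% (54.7 to 70.4). Barcodes with at most 50 UMIs, which hold mostly free RNA, contained Nfkbia at 539 CPM (496 to 585) in the WT-host library and 929 CPM (827 to 1039) in that of the MARCH1-/- host. The WT-host cells were thus at the level of free RNA and the MARCH1-/- host cells above it. Of the other 9 members, Nfkb1 alone lay above free RNA in both libraries (214 and 279 CPM there), and Rel, Nfkbiz and Tnfaip3 did in the WT-host library only, at 102, 108 and 176 CPM in free RNA. The other intervals overlapped those of free RNA. This held for Rela, Relb, Nfkb2, Nfkbid and Bcl3 in both libraries. It also held for Rel, Nfkbiz (141 CPM in free RNA) and Tnfaip3 (337 CPM) in the MARCH1-/- host library. Free RNA can come from the same sorted cells, so an overlap neither marks the counts in cells as background nor tells them apart from it. For Rela, Nfkb2 and Nfkbid in the WT-host library the free RNA level was the higher value, at 55.6, 78.8 and 34.3 CPM. The part of free RNA in the cells' counts was not tested. Barcodes left out for more than 10% mitochondrial UMIs held Nfkbia at 555 CPM (402 to 748; 43 UMIs) and 570 CPM (332 to 912; 17 UMIs), with overlapping intervals.

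**Figure D2:**
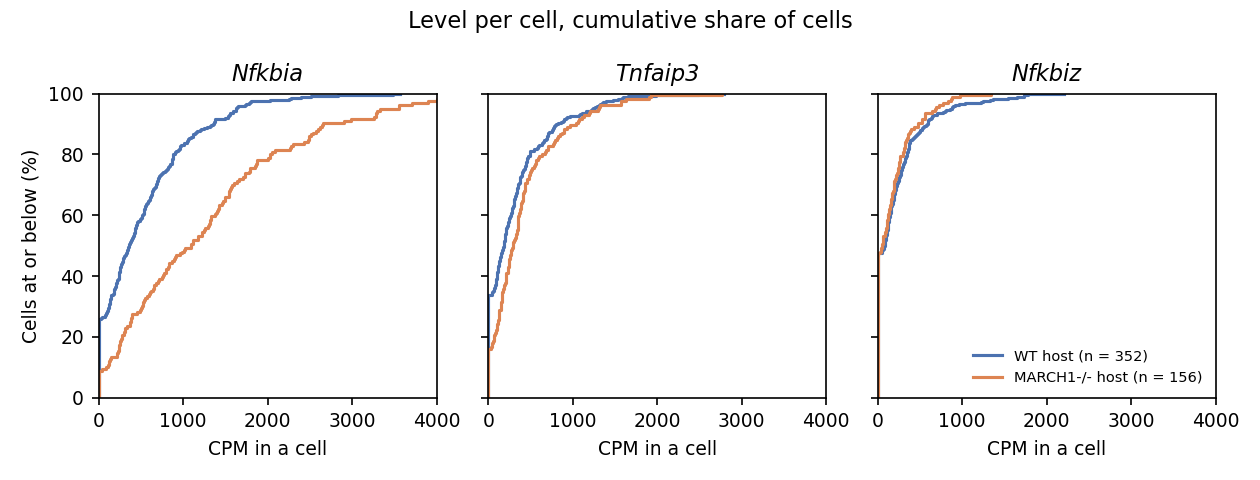
Cumulative share of cells (%) at or below a given level per cell (CPM) for Nfkbia, Tnfaip3 and Nfkbiz in the WT-host (blue, n = 352) and MARCH1-/- host (orange, n = 156) library. The Nfkbia curves are apart over the whole range, with medians of 357 and 1089 CPM, while the Nfkbiz curves run close together, and 4 MARCH1-/- host cells lie beyond the Nfkbia axis end of 4000 CPM.

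Part of a list of early-response genes, whose transcripts also rise when tissue is dissociated, was higher in the same library. The 19 genes of the list summed to 3567 CPM in the WT-host library and 6017 CPM in the MARCH1-/- host library. Of the 16 with at least 50 UMIs, 6 (37.5%) were called higher, 0 lower and 10 lay within 1.5-fold, where 12.6% of all genes were called higher and 15.1% lower. The median relative log2 ratio of the 16 was 0.41. The 6 were Dusp2 (1.37), Dusp1 (1.33), Fosb (1.12), Zfp36 (1.01), Ier2 (0.83) and Junb (0.68). The 4 under the median gene were Atf3 (-0.55), Egr1 (-0.28), Btg2 (-0.09) and Jun (-0.07). Without the 10% of cells of each library highest in this list, the Nfkbia ratio was 1.05. The same share of cells was left out of each library, so a difference in the list spread over the remaining cells stayed in. The part of the list in the Nfkbia difference was therefore not tested.

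Tnfaip3 encodes A20, which removes activating ubiquitin chains upstream of the kinase complex. It gave 240 CPM (222 to 260) and 327 CPM (300 to 357), the second at the level of free RNA, and a relative log2 ratio of 0.19 (0.02 to 0.37), within 1.5-fold. Its median cell held 181 CPM in the WT-host library and 294 CPM in the MARCH1-/- host library. The atypical, nuclear members of the I-kappa-B family were not called higher. Nfkbiz encodes I-kappa-B-zeta, a nuclear co-regulator of NF-kappa-B target genes, and gave 182 CPM (166 to 199) and 134 CPM (116 to 153). Its relative log2 ratio was -0.69 (-0.94 to -0.46), a 1.62-fold lower level, while an Nfkbiz UMI was found in 52.6% of cells in both libraries. The Nfkbiz call was lost with plain CPM ratios (-0.44), equal weights per cell (-0.57), thinned cells (-0.56) and without cycling cells (-0.42). Bcl3, a nuclear partner of p50 and p52 dimers, gave 43.6 CPM (35.9 to 52.4; 112 UMIs) and 24.1 CPM (17.1 to 33.1; 38 UMIs). Its relative log2 ratio was -1.10 (-1.68 to -0.56), or 2.15-fold lower, the lowest of the 10. Nfkbid encodes I-kappa-B-NS, another nuclear family member, and gave 22.2 and 33.0 CPM (0.32, -0.25 to 0.89). Its UMIs were concentrated: 5% of the cells held 61.4% of them in the WT-host library and 76.9% in the MARCH1-/- host library.

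The Nfkbia difference was present in every set of cells compared. A cell was counted as cycling when it held a UMI of at least 3 of 10 mitosis markers such as Mki67 and Top2a. There were 99 such cells of the WT host and 62 of the MARCH1-/- host. In cycling cells Nfkbia stood at 463 CPM and 1096 CPM (0.99, 0.84 to 1.14), and in the 253 and 94 non-cycling cells at 584 CPM and 1549 CPM (1.18, 1.04 to 1.32). Among non-cycling cells, those with a UMI of a type 2 cytokine (Il4, Il5 or Il13) held 653 and 1692 CPM (1.19, 0.99 to 1.39). Those with a UMI of Foxp3, which encodes the defining factor of regulatory T cells, held 675 and 1924 CPM (1.39, 1.04 to 1.74). A single one of the 17 Foxp3 cells of the MARCH1-/- host held 80 of their 180 Nfkbia UMIs, and without the top cell on each side the ratio was 0.80 (0.39 to 1.22). Cells with no helper marker held 436 and 1432 CPM (1.54, 1.25 to 1.84). Over these 5 sets of cells, which overlap, Nfkbia was called higher in 5. Genes called higher made up 13.0% of those compared in cycling cells, 13.2% in non-cycling cells, 15.2% in type 2 cytokine cells, 19.5% in Foxp3 cells and 18.2% in cells with no helper marker.

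No other member was called in the same direction in all 5 sets. Apart from Nfkbia, only Nfkb1, Nfkbiz and Tnfaip3 had at least 50 UMIs in all 5, so the remaining members could not be. Bcl3 was called lower in cycling cells (-1.14, -2.01 to -0.33) and in non-cycling cells (-0.87, -1.68 to -0.12), and had under 50 UMIs in the other 3. Nfkb2 was called lower in cycling cells (-0.58, -1.22 to 0.03), and at -0.52 without the top cell it was not. Nfkbiz was called lower in cycling cells (-0.61) and in type 2 cytokine cells (-0.67, -1.15 to -0.21). In Foxp3 cells Nfkbiz was at 245 and 406 CPM (0.60, -0.08 to 1.28), an interval that includes 0, and without the top cell it fell within 1.5-fold at 0.56. Rel was called lower in type 2 cytokine cells, at 213 CPM (132 UMIs) and 122 CPM (29 UMIs), a ratio of -0.98 (-1.62 to -0.40). Of the genes compared, 16.8% were called lower in cycling cells, 16.7% in non-cycling cells, 19.3% in type 2 cytokine cells, 22.9% in Foxp3 cells and 20.3% in cells with no helper marker. Tnfaip3 was called higher in Foxp3 cells only (0.74, 0.14 to 1.34; 48 and 50 UMIs). Without the top cell on each side its ratio there was 0.60 (-0.07 to 1.27), an interval that includes 0. The difference from the other sets was not tested.

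**Figure D3:**
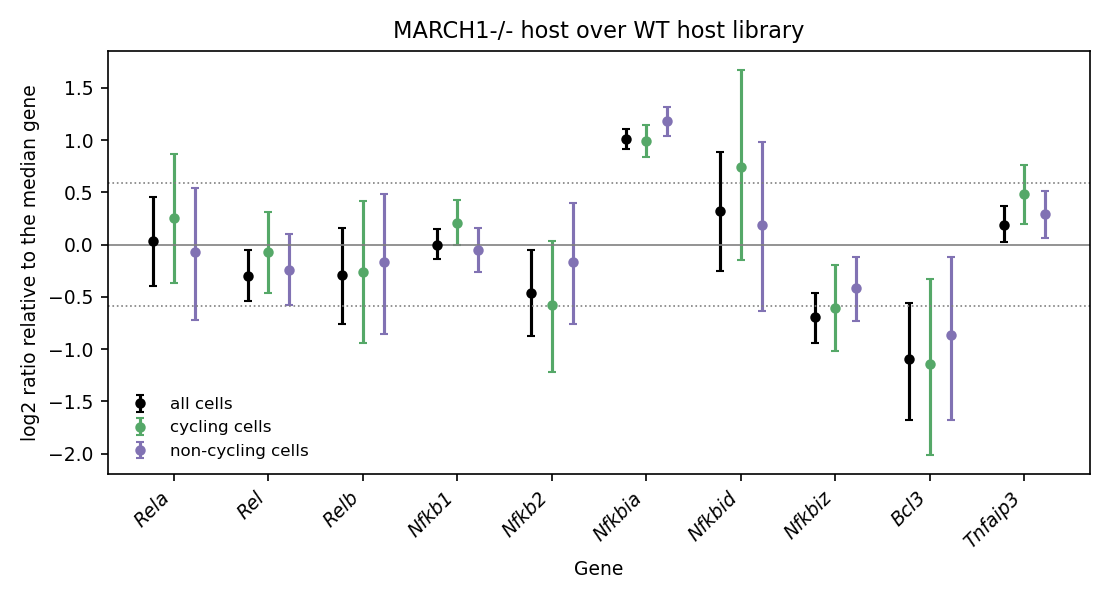
log2 ratio of the MARCH1-/- host to the WT-host library for each gene, relative to the median gene of the comparison, in all cells (black), cycling cells (green) and non-cycling cells (purple), with exact 95% counting intervals. Dotted lines mark 1.5-fold, and only Nfkbia lies above the upper line in all 3, at 1.01, 0.99 and 1.18. Bcl3 lies below the lower line in all 3, at -1.10, -1.14 and -0.87. Genes under 50 UMIs are drawn too, so Nfkbid in cycling cells (0.74) stands above the line without a call.

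Within each library, several of these transcripts made up a smaller share of UMIs (CPM) in cycling than in non-cycling cells. None of the 10 was called higher in either library. These are shares in deeper cells and do not mean fewer UMIs per cell. A Tnfaip3 UMI was found in 65.7% of cycling and 66.4% of non-cycling WT-host cells, and in 85.5% and 83.0% of MARCH1-/- host cells. In the WT-host library 4 of the 10 were called lower in cycling cells, and in the MARCH1-/- host library 3 of the 9 with at least 50 UMIs. Over all genes 15.0% and 17.8% were called lower, and 16.6% and 19.7% higher. The members' median was -0.39 and -0.43, against 0.00 for all genes. Nfkbiz and Tnfaip3 were called lower in both. Nfkbiz was at 111 CPM in cycling and 242 CPM in non-cycling WT-host cells, 2.01-fold lower (log2 interval -1.31 to -0.71), and at 87.2 and 212 CPM in MARCH1-/- host cells (-1.22, -1.63 to -0.81). Tnfaip3 was at 153 and 315 CPM (-0.92, -1.18 to -0.67), and at 255 and 449 CPM (-0.76, -1.01 to -0.50).

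Nfkbia was at 463 CPM in cycling and 584 CPM in non-cycling WT-host cells (-0.22, -0.38 to -0.06) and at 1096 and 1549 CPM in MARCH1-/- host cells (-0.43, -0.56 to -0.31). Rel was at 102 and 176 CPM in the WT-host library (-0.67) and at 116 and 175 CPM in the other, where it lay within 1.5-fold. Nfkbid was called lower in the WT-host library (-0.76, -1.65 to 0.08; 18 and 39 UMIs) and Nfkb2 in the MARCH1-/- host library (-0.68, -1.37 to 0.01), both with intervals that include 0. With a threshold of 2 markers the WT-host ratios of Nfkbiz (-0.55) and Rel (-0.29) fell within 1.5-fold, with 5 markers those of Rel (-0.54), Nfkbid (-0.42) and, in the MARCH1-/- host library, Nfkb2 (-0.50) did, and with thinned cells that of Tnfaip3 in the MARCH1-/- host library (-0.31). In thinned WT-host cells Nfkbia was past 1.5-fold (-0.85), and Nfkbiz was at -1.68. Early-response genes were also lower in cycling cells, at 3055 against 4002 CPM in the WT-host library and 5279 against 7251 CPM in the other, and their part in these differences was not tested. The cycling class was a threshold on a count: 33 and 18 cells lay just under it with 2 markers, and 19 and 8 just over it with 3. Cycling cells were deeper, at a median of 11005 against 4828 UMIs in the WT-host library and 14444 against 6022 in the other.

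Non-cycling cells with a type 2 cytokine UMI, 90 of the WT host and 29 of the MARCH1-/- host, had more Nfkb1 than the other non-cycling cells of their library. Nfkb1 was the 1 member called higher in each library, of 9 and 5 with enough UMIs. Called lower were Tnfaip3 in the WT-host and Rel in the MARCH1-/- host library. In the WT-host library Rela, Nfkbiz and Bcl3 (0.56 each) and Rel (0.54) lay just inside 1.5-fold on the side of Nfkb1. The intervals of Rela and Bcl3 included 0, and Relb (-0.31) and Tnfaip3 (-0.75) went the other way. The members' median was 0.54 there and 0.00 in the MARCH1-/- host library, against 0.00 for all genes. The quartiles of all genes were -0.29 and 0.27, and -0.30 and 0.27. Over all genes 8.44% and 8.84% were called higher and 10.6% and 11.5% lower. Nfkb1 was at 514 CPM (319 UMIs) in these WT-host cells and 331 CPM in the rest (0.64, 0.39 to 0.88). In the MARCH1-/- host library it was at 699 CPM (166 UMIs) and 310 CPM (1.19, 0.83 to 1.55). With each cell weighted equally the WT-host ratio was 0.51, within 1.5-fold. A single non-cycling WT-host cell held 10 Nfkb1 UMIs of 735, or 13605 CPM, and its part in that value was not tested. A Nfkb1 UMI was found in 81 of the 90 and 28 of the 29 type 2 cytokine cells, and in 57.1% and 70.8% of the rest. The rest included Foxp3 cells, which were low in Nfkb1 (178 and 235 CPM). Cells with no helper marker were at 346 CPM (286 to 414) and 323 CPM (246 to 416), against 459 to 574 and 597 to 814 for the intervals of type 2 cytokine cells. This contrast and the Foxp3 contrast below therefore share cells, and the part of the Foxp3 cells was not tested. Tnfaip3 was at 229 and 384 CPM in the WT-host library (-0.75, -1.05 to -0.45), and -0.57 with thinned cells. In the MARCH1-/- host library it was at 345 and 520 CPM (-0.58, -0.97 to -0.19), just inside 1.5-fold.

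Rel went opposite ways in type 2 cytokine cells of the 2 libraries, at 213 against 147 CPM in the WT-host library (0.54; 0.96 with each cell weighted equally) and 122 against 210 CPM in the MARCH1-/- host library (-0.77, -1.44 to -0.13; -0.49 with cycling cells included). Foxp3 cells gave 28 of the 74 Rel UMIs behind that 210 CPM, and their part was not tested. Nfkbia was within 1.5-fold in both (0.30 and 0.23). Nfkbid was counted 2 times in the 29 type 2 cytokine cells of the MARCH1-/- host, both UMIs in 1 cell, against 20 UMIs in the other 65 cells. The type 2 cytokine cells were deeper than the rest, at a median of 6652 against 4083 UMIs and 8369 against 5065 UMIs, and a deeper cell is more likely to show a cytokine UMI. Early-response genes summed to 4088 against 3933 CPM and 6297 against 7895 CPM.

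Cells with a Foxp3 UMI had less Nfkb1 than the other non-cycling cells in both libraries. There were 31 such cells of the WT host and 17 of the MARCH1-/- host, of which 2 and 0 also held a type 2 cytokine UMI. Nfkb1 was at 178 CPM (29 UMIs) against 444 CPM in the WT-host library (-1.33, -1.92 to -0.79) and at 235 CPM (22 UMIs) against 510 CPM in the other (-1.14, -1.84 to -0.51). With cells thinned to 1000 UMIs the WT-host ratio was -0.65, still past 1.5-fold. The intervals of the levels in Foxp3 cells (119 to 255 and 147 to 356) overlapped those of free RNA, at 214 CPM (187 to 244) and 279 CPM (225 to 342). A Nfkb1 UMI was found in 51.6% and 64.7% of Foxp3 cells, and in 71.2% and 81.8% of the other non-cycling cells. The cells compared with the Foxp3 cells included the type 2 cytokine cells, which gave 166 of that group's 253 Nfkb1 UMIs in the MARCH1-/- host library. In non-cycling cells with no helper marker Nfkb1 was at 346 CPM (286 to 414) and 323 CPM (246 to 416). Only the second interval, of the MARCH1-/- host, overlapped that of the Foxp3 cells. The part of the type 2 cytokine cells in this difference was not tested. Over all genes 14.5% and 14.3% were called lower, and 12.5% and 12.0% higher.

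Other members were called in 1 library, or in opposite directions. In the WT-host library Rel was at 67.5 CPM (11 UMIs in 7 cells) in Foxp3 cells against 191 CPM (-1.50, -2.53 to -0.64). In the MARCH1-/- host library it was at 299 CPM (28 UMIs in 10 cells) against 151 CPM (0.96, 0.28 to 1.61), a direction opposite to the first, and with cycling cells included the ratio was 0.25. Relb was higher in Foxp3 cells of the WT host, at 92.0 CPM (15 UMIs) against 41.5 CPM (1.14, 0.20 to 1.99), and 0.38 with cycling cells included. Nfkbiz was higher in those of the MARCH1-/- host, at 406 CPM (38 UMIs) against 175 CPM (1.19, 0.60 to 1.76), and at 245 against 242 CPM (0.01) in those of the WT host. Nfkbid gave 14 UMIs in 3 of the 17 Foxp3 cells of the MARCH1-/- host, 9 of them in 1 cell. Nfkbia was at 675 against 572 CPM (0.23) and at 1924 against 1478 CPM (0.36), and the second ratio was -0.22 without the top cell on each side. Early-response genes summed to 3956 against 4008 CPM in the WT-host library and 8273 against 7059 CPM in the other, and their part was not tested.

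**Figure D4:**
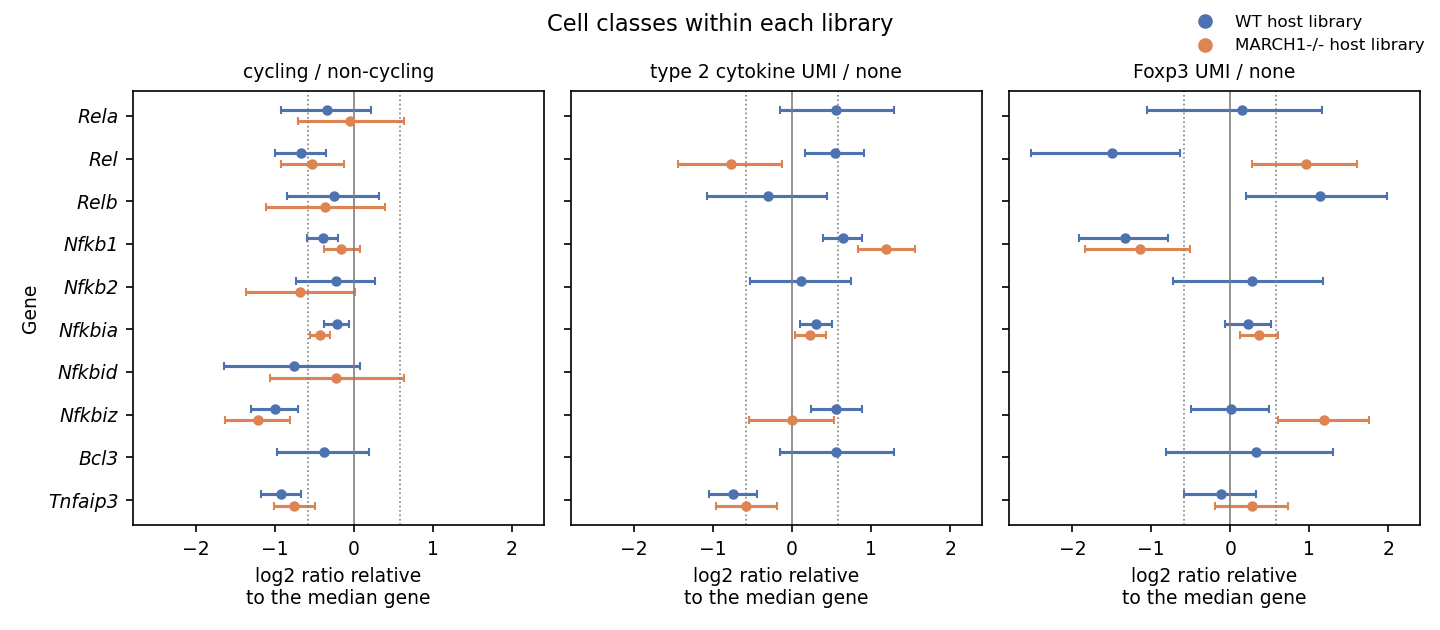
log2 ratio of each gene between cell classes, relative to the median gene, in the WT-host (blue) and MARCH1-/- host (orange) library, with exact 95% counting intervals and genes under 50 UMIs left out. Dotted lines mark 1.5-fold. Nfkbiz and Tnfaip3 lie left of the line in cycling cells of both libraries, Nfkb1 right of it in type 2 cytokine cells (0.64 and 1.19) and left of it in Foxp3 cells (-1.33 and -1.14).

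Non-cycling cells with an Ifng or Tbx21 UMI could be compared in the WT-host library alone, since there were 9 in the other. In the 40 such WT-host cells Rel was called higher, at 275 CPM (66 UMIs) against 155 CPM (0.81, 0.38 to 1.23), where 8.41% of all genes were called higher. One of those cells held 21 of the 66 Rel UMIs, and without the top cell on each side the ratio was 0.41 (-0.10 to 0.89), within 1.5-fold.

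The rest of the pathway was described from lists of its other parts, and in none of them were most genes called in 1 direction. The counts below stand beside 12.6% called higher and 15.1% called lower over all genes in the same comparison. Of 16 other inhibitors, 15 had at least 50 UMIs. Among these, 2 (13.3%) were called higher and 3 (20.0%) lower, near the background, and the median was -0.04. Tnip3, an A20-binding protein, was at 21.0 CPM in the WT-host library and 6.98 CPM in the MARCH1-/- host library (-1.84, -2.93 to -0.89). Otulin, which cleaves linear ubiquitin chains, was also called lower (-0.66), as was Itch, a ubiquitin ligase that works with A20 (-0.67), while Tnfaip8l2 (0.76) and Pdlim2 (0.67) were called higher. Of 24 kinases and adaptors upstream, 21 had enough UMIs, 3 (14.3%) were called higher and 4 (19.0%) lower, again near it, and the median was 0.02. Bcl10, which links the T cell receptor to the kinase complex, was at 127 and 78.1 CPM (-0.96, -1.27 to -0.65). Its partner Malt1 was at 156 and 189 CPM (0.02). The adaptor Traf6 was lower (-1.56, -2.21 to -0.95), and the ubiquitin ligase Birc2 was higher (1.26, 0.82 to 1.70).

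Among 19 receptors that signal to NF-kappa-B, 12 had enough UMIs, 2 (16.7%) were called higher and 3 of the 12 lower, and the median was -0.14. The co-stimulatory receptors Cd28 (237 and 457 CPM; 0.70, 0.54 to 0.85) and Cd27 (32.3 and 74.9 CPM; 0.96, 0.54 to 1.39) were higher. Tnfrsf9, which encodes 4-1BB, was lower (50.2 and 28.6 CPM; -1.06, -1.59 to -0.56), as was the IL-18 receptor chain Il18r1 (-0.84, -1.18 to -0.51). The IL-33 receptor Il1rl1 was within 1.5-fold (230 and 211 CPM; -0.38). Among 24 known targets, 21 had enough UMIs, 3 (14.3%) were called higher and 6 (28.6%) lower, and the median was -0.21. The IL-2 receptor chain Il2ra was at 322 and 168 CPM (-1.19, -1.40 to -0.99), and Gadd45b, a stress-response target, was at 363 and 319 CPM (-0.44). The chemokine receptor Ccr7 was at 10.9 and 67.9 CPM (2.39, 1.78 to 3.04), and Sod2, a mitochondrial superoxide dismutase, at 44.3 and 87.6 CPM (0.73). Bcl2a1d was lower (-2.66, -3.20 to -2.16), but it and Bcl2a1b (-0.87) are near-identical copies whose reads may not be told apart, so their values are uncertain.

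**Figure D5:**
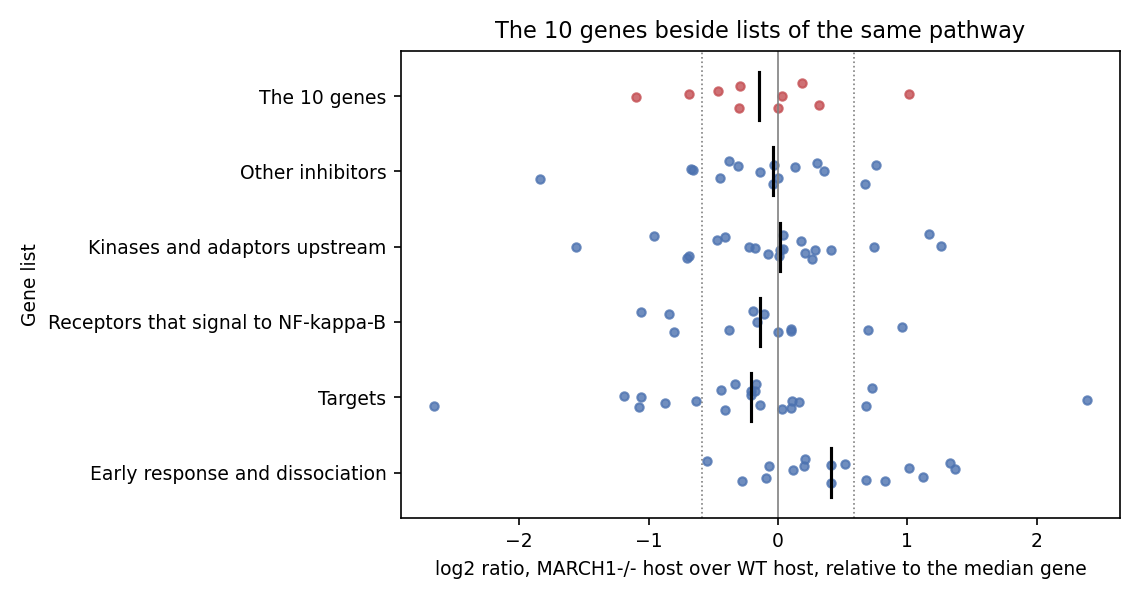
log2 ratio of the MARCH1-/- host to the WT-host library, relative to the median gene, for the 10 genes (red) and for genes with at least 50 UMIs on 5 lists (blue; 3 genes stand on more than 1 list). Black bars are list medians and dotted lines mark 1.5-fold. The early-response list has the highest median, at 0.41, and the 10 genes lie between -1.10 and 1.01.

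Over the 45 pairs of members the median Pearson correlation across cells, of log(1 + counts per 10000), was 0.12 in both libraries, and the highest was 0.45 in the WT-host library and 0.41 in the MARCH1-/- host library. Cells share their depth and library, so these values are descriptions, and counts this sparse lower them. Of 5576 genes seen in at least 10% of cells of both libraries, the one most like Nfkbia by the lower of its 2 correlations was Gadd45b (0.44 and 0.43). Junb (0.34 and 0.37), Bhlhe40 (0.33 and 0.34), Traf1 (0.34 and 0.32) and Nfkbiz (0.45 and 0.32) came next. The genes most like Tnfaip3 were Junb (0.34 and 0.49), Nr4a1, Btg1, Nfkbia and Btg2, of which Junb, Nr4a1 and Btg2 are on the early-response list. Those most like Nfkb1 were Baz1a (0.36 and 0.35), Igfbp7, Rbpj, Tnfsf8 and Samsn1, with 0 genes shared with the Nfkbia or Tnfaip3 sets.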

How the data were processed

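The deposited values are raw UMI counts, not normalized, for every barcode with a UMI, per the file headers. The kit was the 10x Chromium 3' kit, per the labels. The submitters' processing notes name Cell Ranger 3.1.0 with build mm10, and the matrix header names Cell Ranger 4. The annotation used for counting is not given in the labels. From these counts, barcodes with at least 500 UMIs, at least 250 genes and at most 10% mitochondrial UMIs were kept, 352 and 156. No doublets were removed in the main values. Scrublet (scanpy 1.11.5, expected rate 0.05) called 5 (1.42%) and 5 (3.21%), and leaving them out was an alternative.

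UMIs were summed per library and class, scaled to CPM, and divided by the median ratio of genes with at least 50 UMIs. With 1 library per group no test was run. The ratio code was checked on simulated counts. Alternatives covered centring, depth, weighting, cell filters and class rules. edgeR 4.0.16 (R 4.3.3) supplied only a TMM scaling factor for 1 alternative. Shares used Clopper-Pearson intervals. Motif windows came from RefSeq (GRCm38.p6), which shares coordinates with mm10. Scripts ran in Python 3.11.15 with scipy 1.17.1 for intervals, numpy 2.4.6 and pandas 2.3.3 for sums, and matplotlib 3.10.9 for figures. All 10 genes are named. Of each pathway list, the 5 genes with the most UMIs and up to 5 more farthest from the median gene could be named, and for the 3 members with the most UMIs the 5 genes most like them. The members and lists were chosen with earlier results of these data known.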

Additional observations from a re-analysis of the deposited data

Results flagged for a closer look

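Rel differed from the rest of its library in opposite directions in the 2 hosts, in a pair of cell classes. In non-cycling cells with a type 2 cytokine UMI its relative log2 ratio to the other non-cycling cells was 0.54 in the WT-host library and -0.77 in the MARCH1-/- host library. Without the cell with the most Rel UMIs on each side the values were 0.44 and -1.12. In cells with a Foxp3 UMI the ratio was -1.50 in the WT-host library and 0.96 in the MARCH1-/- host library. Those values rest on 11 and 28 Rel UMIs in 7 and 10 cells, and 1 MARCH1-/- host cell held 10 of the 28. Without the top cell on each side they were -1.98 and 0.63, and with cycling cells included the second was 0.25. The 2 contrasts share cells, because each class was among the cells compared with the other, apart from 2 WT-host cells that were in both classes. In the MARCH1-/- host library Foxp3 cells gave 28 of the 74 Rel UMIs set against type 2 cytokine cells. In the WT-host library type 2 cytokine cells held 132 Rel UMIs, and the cells set against Foxp3 cells held 234. The 2 classes are therefore not separate results. The difference between hosts was not tested in either class, since each host had 1 library.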

How the results depend on the processing

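Nfkbia was called higher under all 16 host alternatives, at 0.99 to 1.27 on the relative log2 scale. The number of members called lower between hosts was 2, and it was 1 with plain CPM ratios, 1 with each cell weighted equally, 0 with cells thinned to 1000 UMIs and 1 without cycling cells. The subunits summed moved from -0.11 to 0.14 with plain CPM ratios and to 0.07 in cycling cells. The regulators summed moved from 0.56 to 0.81 with plain CPM ratios, 0.72 thinned, 0.68 without cycling cells and 0.68 in cycling cells. The members lower in cycling cells of both libraries went from 2 to 0 when thinned. The members higher in type 2 cytokine cells of both libraries went from 1 to 0 with equal weights (Nfkb1 at 0.51 in the WT-host library) and to 0 thinned. Those lower there went from 0 to 1 with plain CPM ratios and to 1 with a minimum of 10 UMIs. The members lower in Foxp3 cells of both libraries went from 1 to 2 with cycling cells included and to 0 thinned. Thinning leaves several members under 50 UMIs. Apart from thinning and the minimum, the cause of these moves was not tested. Of 540 alternative values for single members, 507 stayed within the counting interval, 33 moved beyond it and 0 of those called changed sign. Leaving out the cell with the most UMIs of a gene was chosen after seeing the data. Requiring 2 Foxp3 UMIs left under 10 MARCH1-/- host cells, so it was not computed over both libraries. No paired analysis was possible because each group has 1 library. Depth limits the members near or under 50 UMIs, such as Nfkbid and Bcl3, to wide intervals.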
